A study of Rattus norvegicus with 3 samples.

Results

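The 6 genes described here encode self proteins against which autoimmune disease can be raised in rats. Mbp and Mog encode myelin basic protein and myelin oligodendrocyte glycoprotein, the targets in experimental encephalomyelitis. Rbp3 (interphotoreceptor retinoid-binding protein) and Sag (retinal S-antigen, or arrestin) are the targets in experimental uveitis. Ins2 encodes insulin and Tg encodes thyroglobulin, the hormone precursor of the thyroid. They were chosen as known disease targets, by a rule that uses no measured value, though with earlier results of these data known. They are 6 of 34034 genes in the count tables. All 6 are listed in both tables.

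The thymus removes or diverts developing T cells that recognise self. Medullary thymic epithelial cells (mTECs) take part by making low amounts of RNA from many genes of other tissues, and the transcription regulators Aire and Fezf2 are known to drive much of it. Mimetic epithelial cells, which resemble peripheral cell types, and blood-derived antigen-presenting cells are other known sources of self antigen in the medulla.

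Thymus of Lewis rats aged 8 weeks was digested and loaded on the 10x droplet platform as 1 library of stromal cells, sorted for lack of the blood-cell protein CD45, and 1 library of thymocytes. The animals had no genetic change or treatment named in the labels, and how many animals gave each library is not given in the sources used here. A spatial section of the same tissue type belongs to the series and was not analysed for these genes. Each group had 1 sample, so differences between labels have no test and no replicate behind them, and the 95% intervals cover counting error alone.

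Cells carry the authors' labels. The stromal library had 13226 annotated cells with a median of 9087.5 unique molecular identifiers (UMIs, each standing for 1 captured RNA molecule), and the thymocyte library had 8546 with a median of 3994. Only labels of at least 20 cells were put in order, which were 24 of 29 for stroma and 21 of 25 for thymocytes. Levels are UMIs per 1000000 UMIs of a label (CPM) with an exact Poisson interval. A label at 0 is given with the level that 3 UMIs would have had there, its detection floor. The libraries shared 28 annotated barcode sequences. Cells sorted as CD45-negative still included 411 labelled Thymocyte, 505 labelled Myeloid and 179 labelled B cell.

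The label mTEC2, on which several results turn, had 61 cells with a median of 13378 UMIs. All 7 mTEC markers listed (Epcam, Krt5, Krt14, Aire, Fezf2, Cd80 and Cd40) were detected in it, and Aire was at 468 CPM (424 to 516) with UMIs in 40 cells. RNA of other cell types was present as well. The 10 thymocyte genes listed summed to 2.72 UMIs per mTEC2 cell with Rag1 at 0, of which Ptcra, in stroma highest in mTEC2 itself, gave 60 of 166 UMIs, the 5 myeloid genes to 288 CPM with Itgam at 0, and the 3 fibroblast genes to 2084 CPM. The part of such RNA in the levels below was tested only for thymocyte genes, as given beside Mbp.

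The windows before the start sites of 3 members show where their transcripts begin in the reference, and are printed because these genes ended at opposite ends of the results: Ins2 was found in every label of at least 20 cells, Rbp3 in no cell, and in stroma most Sag UMIs were in the Myeloid label. RefSeq gave such a window for 4 of the 6 genes, Mbp among them, and Mog and Tg were without an entry. The sequences are RefSeq's for GRCr8, a build other than the one behind the counts, and run 5′ to 3′ on the gene's strand over the 250 bases before the start. Capitals mark a match to a searched motif.
Ins2, chr1:207273806-207274055, minus strand: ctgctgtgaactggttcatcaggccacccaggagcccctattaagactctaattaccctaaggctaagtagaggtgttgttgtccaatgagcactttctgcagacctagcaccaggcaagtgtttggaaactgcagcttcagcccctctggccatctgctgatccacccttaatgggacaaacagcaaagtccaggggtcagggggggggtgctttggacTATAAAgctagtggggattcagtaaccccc
Rbp3, chr16:9273537-9273786, plus strand: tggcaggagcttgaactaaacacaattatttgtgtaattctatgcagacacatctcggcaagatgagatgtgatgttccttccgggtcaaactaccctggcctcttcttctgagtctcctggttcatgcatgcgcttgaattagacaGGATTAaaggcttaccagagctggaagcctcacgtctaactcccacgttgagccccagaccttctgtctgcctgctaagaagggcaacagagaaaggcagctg
Sag, chr9:95916947-95917196, plus strand: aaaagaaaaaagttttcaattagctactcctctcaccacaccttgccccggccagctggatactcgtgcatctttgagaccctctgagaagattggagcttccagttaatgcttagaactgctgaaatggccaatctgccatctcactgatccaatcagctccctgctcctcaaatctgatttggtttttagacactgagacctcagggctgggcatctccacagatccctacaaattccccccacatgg

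The search covered 4 motifs, each read on both strands and set against 33469 RefSeq windows of the same length. All 4 were chosen after these windows had been read, so a match is a description and supports nothing. TATAAA, the TATA box, was found in the Ins2 window, and 12.9% of all windows hold it. TAATCC, which photoreceptor homeodomain factors such as Crx bind, was found on the opposite strand of the Rbp3 window, and 6.34% of all windows hold it. A search for GAGGAAG, a PU.1-type ETS site held by 10.2% of all windows, matched no window of a member. The same was true of the E-box CAGGTG, which 15.9% of all windows hold. The Sag window matched none of the 4, and neither did the windows of Mbp, which are not printed.

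Mog, a protein of the outer myelin surface, was rare and was highest in mTEC2. The stromal library held 24 Mog UMIs in 19 cells, of which 11 UMIs were in 6 of the 61 mTEC2 cells, or 12.6 CPM (6.27 to 22.5). With the authors' clusters in place of projected labels, the cluster TEC-d, which holds most mTEC2 cells, was at 2.31 CPM. The next label, mTEC-prol, held 2 UMIs in 76 cells, mTEC1 held 1 in 482 cells and cTEC (cortical epithelium) none in 448, where the floor was 0.602 CPM. The mTEC2 level was 5.73-fold above that of mTEC-prol counted at the floor of 3 UMIs, and their intervals do not overlap. The intervals of 5 small labels at 0 UMIs did overlap that of mTEC2. These were MEC, nmSC, mimetic(muscle), aaTEC2 and mimetic(tuft), the last reaching 13.1 CPM. A further 10 UMIs lay in 10 mesenchymal cells, 4 of them labelled TMC4, and the mTEC2 level was 36.3-fold (10.8 to 156) that of TMC4. The label nmSC (39 cells), in which all 8 Schwann cell markers were detected, held no Mog against a floor of 10.6 CPM.

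Of 19880 stromal genes with at least 20 UMIs, 8.29% had a highest label at least 3-fold above the next, and 2.63% had mTEC2 as that label. Mog met this rule through the 20-UMI minimum on the gene's total, with 11 UMIs in the label itself. By the same rule Ins2 was also called in mTEC2, a call lost without 1 cell or with clusters as given below, Sag in Myeloid (1.25% of genes) and Tg in Thymocyte (1.03%), while Mbp was not called and Rbp3 had no UMI.

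Every mTEC2 and mTEC-prol cell with Mog also held Aire. The 6 mTEC2 cells had 5 to 28 Aire UMIs each and the 2 mTEC-prol cells had 10 and 15, and all 8 held Fezf2 and Insm1. Mog was found in 6 of 40 mTEC2 cells with Aire, or 15% (5.71 to 29.8), and in 0 of 21 without, which allows up to 16.1%. The cells with Aire were also deeper, with a median of 17096 UMIs against 7652. With each cell thinned to 1000 UMIs the expected shares were 1.16% and 0%. The part of depth in this difference cannot be told apart from that of Aire. The single Mog UMI of mTEC1 lay in a cell without Aire. Among the genes of oligodendrocytes, the cells that make myelin in the brain, Mag, Mobp and Opalin were at 0 in mTEC2, and Olig1 and Olig2 together gave 45 UMIs. RefSeq lists Zfp57 as overlapping Mog, and Zfp57 was at 14.9 CPM (7.91 to 25.4) in mTEC2 and highest in mimetic(muscle) at 38.4 CPM (23.5 to 59.3), where Mog was 0.

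In the thymocyte library Mog gave 7 UMIs in 5 cells. Of these 4 UMIs were in DP, the CD4 and CD8 double-positive stage, and 3 in B+myeloid, and the other 19 ordered labels were at 0. The 2 B+myeloid cells with Mog carried epithelial RNA. The first had 9 Epcam, 5 Krt5, 9 Aire and 8 Fezf2 UMIs. The other had 42 Epcam and 44 Krt5 UMIs, with Aire and Fezf2 at 0. Both were at 0 for Lyz2, Tyrobp, Cd79a and Cd79b. The DP cells with Mog, which hold the other 4 UMIs, were at 0 for all of these epithelial and blood-cell genes. They were shallower, at 2539 to 3294 UMIs each against 23422 and 34370 in the B+myeloid cells. Across the 24 stromal labels, the genes whose log2(CPM + 1) was most like that of Mog were Sst at r = 0.991, Il27 at 0.981 and Defb14 at 0.978, each highest in mTEC2. These are correlations over labels that share 1 library and differ in depth, and with Mog at 0 in 16 of 24 labels they rest largely on mTEC2.

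**Figure D1:**
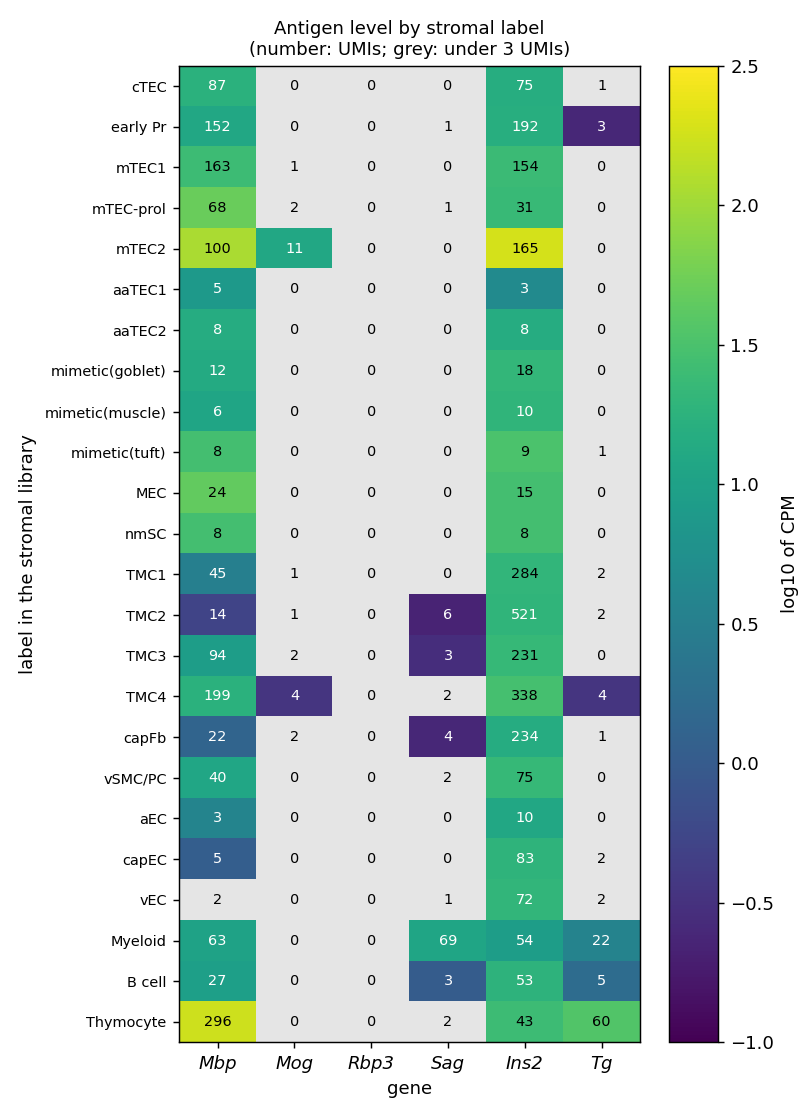
Level of each gene in the 24 stromal labels of at least 20 cells, as log10 of CPM by colour, with the number of UMIs printed in each cell and labels under 3 UMIs in grey. Rbp3 is grey throughout, Mog stands out in mTEC2 with 11 UMIs, Sag in Myeloid with 69 and Tg in Thymocyte with 60, while Mbp and Ins2 are coloured in nearly every label.

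Mbp, which compacts the myelin sheath, was much more widespread. The gene also gives longer golli transcripts, known from T-lineage cells, and RefSeq lists 15 transcripts under the symbol. Gene-level UMIs cannot tell myelin and golli forms apart. The stromal library held 1457 Mbp UMIs in 1061 cells, and each of the 24 ordered labels had at least 1. The Thymocyte label was highest at 173 CPM (153 to 193), followed by mTEC2 at 114 CPM (93.0 to 139; 48.7 in the cluster TEC-d), mTEC-prol at 49.7 (38.6 to 63.1) and MEC at 45.6 (29.2 to 67.8). The intervals of Thymocyte and mTEC2 did not overlap, and Thymocyte was 1.51-fold (1.20 to 1.91) above mTEC2. At the low end were TMC2 with 14 UMIs in 3080 cells, or 0.525 CPM, vEC at 0.553 CPM and capEC at 1.12 CPM, and vEC and capEC are endothelial.

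Within the epithelium Mbp was highest in mTEC2. It was in 32 of 61 mTEC2 cells, or 52.5% (39.3 to 65.4), and the mTEC2 level was 2.30-fold (1.67 to 3.17) that of mTEC-prol, 4.51-fold (3.48 to 5.82) that of mTEC1 and 6.55-fold (4.86 to 8.83) that of cTEC. The cTEC level of 17.4 CPM did not differ beyond counting error from that of the mesenchymal label TMC4, 17.2 CPM (ratio of TMC4 to cTEC 0.987, 0.764 to 1.29). Mesenchymal labels spanned a wide range: TMC4 was 32.8-fold (19.1 to 61.1) above TMC2 and 1.93-fold (1.51 to 2.50) above TMC3. The nmSC label held 8 UMIs in 4 of 39 cells, 28.2 CPM (12.2 to 55.6). Beside its Schwann markers, fibroblast genes were detected in all 39 of its cells, at 10845 CPM in sum.

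Since thymocytes are rich in Mbp, its UMIs were set against those of the 10 thymocyte genes in the same cells. There were 0.602 (0.465 to 0.777) Mbp UMIs per thymocyte-gene UMI in mTEC2, 1.11 (0.777 to 1.60) in mTEC-prol and 2.03 (1.59 to 2.61) in TMC4, against 0.0244 (0.0217 to 0.0274) in the Thymocyte label and 0.0148 in DP cells of the other library. Without Ptcra in the list the ratios were 0.943 (0.711 to 1.25) in mTEC2 and 2.52 (1.59 to 4.09) in mTEC-prol, against 0.0246 in Thymocyte. Without stromal cells holding 3 or more UMIs of the thymocyte genes, mTEC2 stood at 126 CPM, or at 123 CPM with Ptcra left off the list. The level was no lower without those cells. The ratio to the 10 thymocyte genes was not particular to mTEC2, at 0.676 in early Pr, 0.629 in mTEC1 and 0.524 in cTEC. In TMC2, the label lowest in Mbp, it was 0.0547 (0.0295 to 0.0935), and in vEC it was 0.0139 (0.00167 to 0.0511).

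Unlike Mog, Mbp was found in mTEC2 cells with and without Aire. It was in 25 of 40 with Aire, 62.5% (45.8 to 77.3), and in 7 of 21 without, 33.3% (14.6 to 57.0), but the levels ran the other way, at 102 CPM (79.7 to 129) and 158 CPM (106 to 225), so no order is read from the shares. In mTEC-prol the levels were 63.8 CPM (43.6 to 90.0) with Aire and 41.6 (29.1 to 57.6) without, which overlap. The most similar genes over the stromal labels were Hpgds (r = 0.790), Wdtc1 (0.766) and Tnfaip8 (0.757).

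**Figure D2:**
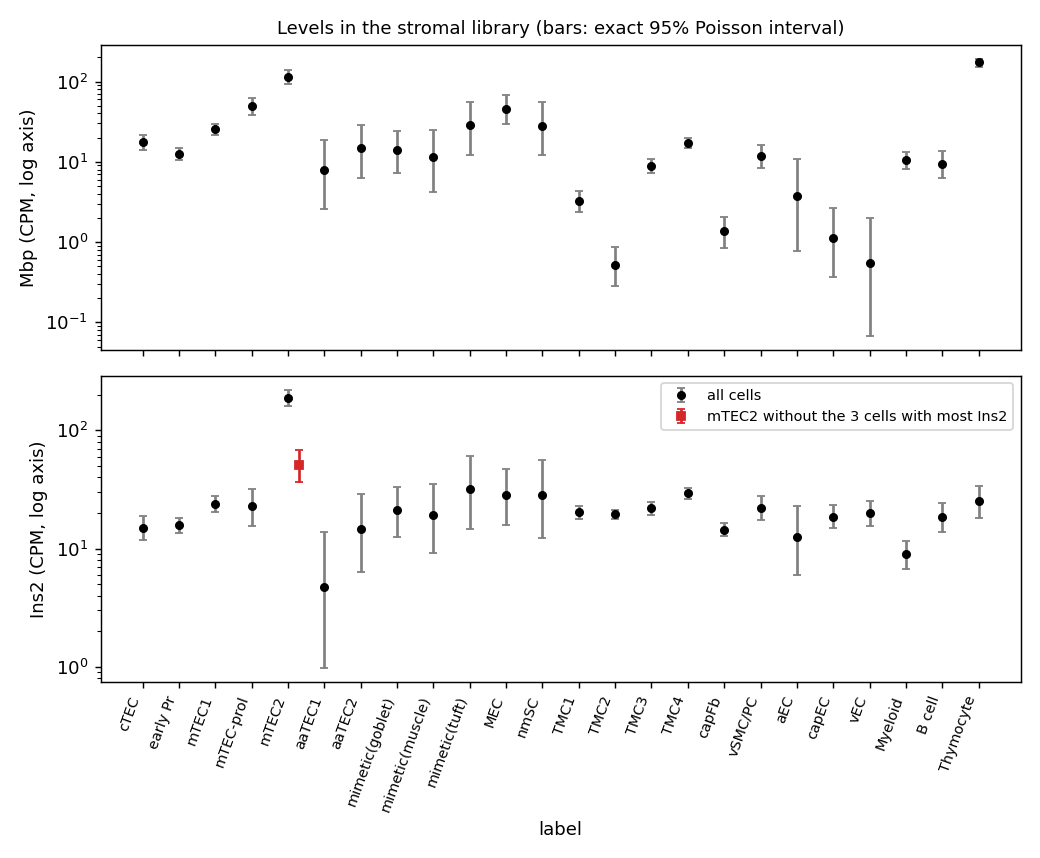
Mbp and Ins2 levels in CPM on a log axis by stromal label of at least 20 cells, with points for all cells of a label and bars for the exact 95% Poisson interval. Mbp runs from 0.525 CPM in TMC2 to 173 in Thymocyte, whereas in these labels of at least 20 cells Ins2 stays between 4.76 and 32.0 CPM outside mTEC2, and the red square shows mTEC2 at 50.9 CPM without its 3 cells with the most Ins2.

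In the thymocyte library Mbp differed between stages of T cell development. It gave 7593 UMIs in 4169 of 8546 cells. DN (double-negative) cells, the earliest stage, had 51.2 CPM (47.1 to 55.7), DP-P had 62.3 (58.6 to 66.2) and DP had 194 (188 to 201). The DP level was 3.79-fold (3.47 to 4.15) above DN. Mbp was highest in 2 immature single-positive labels, Immature CD4-1 at 272 CPM (237 to 312) and Immature CD8-1 at 234 (205 to 266), which overlap each other. Immature CD4-2 at 221 (190 to 255) and DP-sig at 211 (187 to 238) also overlapped Immature CD4-1. Pre DP-sig was at 209 CPM, and Immature CD8-2, at 177 (144 to 217), was below DP with an overlapping interval. The 4 mature CD4 and CD8 labels ran from 103 to 163 CPM and the 4 immature ones from 177 to 272. Immature CD4-1 was 2.64-fold (2.07 to 3.36) above Mature CD4-1, and Immature CD8-1 1.72-fold (1.38 to 2.15) above Mature CD8-1. Mature CD4-2 at 163 CPM (142 to 187) overlapped Immature CD8-2 at 177 (144 to 217). The lowest label was gdT at 37.8 CPM (30.9 to 45.9). DN cells held Mbp more often than DP cells, 61.8% against 43.6%, but had a median of 23190 UMIs against 3205.5, and thinned to 1000 UMIs the shares were 5.97% and 16.9%, the order of the CPM. The genes most like Mbp over the 21 labels were Ramp1 (r = 0.931), Chd2 (0.920) and Mark2 (0.918).

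Of the 15890 genes with at least 20 UMIs in the thymocyte library, 8.62% had a highest label at least 3-fold above the next, and none of the 4 members tested there (Mbp, Sag, Ins2 and Tg) did.

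Rbp3, which carries retinoids between photoreceptors and pigment epithelium, had no UMI in either library, annotated or not. Over 131624350 stromal and 64440495 thymocyte-library UMIs, the floors were 0.0228 and 0.0466 CPM. For the 2304 epithelial cells together the floor was 0.104 CPM, and for mTEC2 alone it was 3.43 CPM, and lower levels would not have been detectable there. No UMI in any annotated cell was seen for 21.5% of all genes in stroma and for 29.2% in thymocytes. The photoreceptor genes listed gave 5 UMIs in 3 mTEC2 cells, with Crx and Gnat1 at 0.

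Sag, which helps to end the light response of photoreceptors, was found mainly outside the epithelium. The Myeloid label held 69 of 94 stromal UMIs, in 57 of 505 cells, 11.3% (8.66 to 14.4), at 11.4 CPM (8.89 to 14.5). The next label, Thymocyte, held 2 UMIs, and Myeloid was 6.54-fold above it counted at the floor of 3. The intervals of nmSC and mimetic(tuft), both at 0 UMIs, reached 13.0 and 13.1 CPM and so overlap that of Myeloid. All 2304 epithelial cells gave 2 UMIs, 1 in mTEC-prol and 1 in early Pr, and mTEC2 gave 0 against a floor of 3.43 CPM. TMC2, with 3080 cells, had 6 UMIs, and Myeloid was 50.8-fold (22.2 to 143) above it.

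Myeloid cells with Sag carried the label's markers. Lyz2, a granule enzyme of phagocytes, was in 96.5% of the 57 cells with Sag and 93.8% of the 448 without, and Tyrobp in 77.2% and 72.8%. Cd68 was in 21.1% and 19.6%, but Itgam in 38.6% and 41.5%. In CPM all of these were lower in the cells with Sag. Lyz2 was at 3702 against 4967 and Tyrobp at 735 against 863. Cd68 was at 31.7 against 50.0 and Itgam at 75.4 against 86.4. Csf1r, the macrophage growth-factor receptor, was at 5.29 CPM on 4 UMIs and 18.7 CPM on 99 UMIs. T cell receptor RNA was present in both: Cd3g was in 29.8% and 23.7% of cells and Cd3e in 15.8% and 10.9%. Cd3d, however, had 0 UMIs in the cells with Sag and 10 in those without. Median depths were 10692 and 9187 UMIs. The genes most like Sag over stromal labels were Tmem150b (r = 0.980), Evi2b (0.952) and Klra4 (0.943), all highest in Myeloid. In the thymocyte library Sag gave 59 UMIs in 54 cells. It was at 2.57 CPM on 7 UMIs in gdT and at 2.51 on 6 UMIs in B+myeloid, whose intervals overlap. The gdT interval overlapped those of 19 other ordered labels, so no label stood out. Only DN, at 0.0923 CPM on 1 UMI, was apart from it.

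Ins2 RNA was in every label of at least 20 cells in both libraries and was highest in mTEC2. The stromal library held 2697 UMIs in 2053 cells. Outside mTEC2 the other 23 ordered labels ran from 4.76 CPM in aaTEC1 to 32.0 in mimetic(tuft), with a median of 19.9. Some differed beyond counting error, such as Myeloid at 8.95 CPM (6.72 to 11.7) and TMC4 at 29.2 (26.2 to 32.5). A label too small to be ordered, mimetic(basal), had 8 UMIs in 4 of 12 cells, 80.6 CPM (34.8 to 159). Over the 23 ordered labels other than mTEC2 the spread was 6.73-fold, with 3 UMIs in the lowest, aaTEC1. Of 8271 genes with 1000 to 10000 stromal UMIs, 48.3% had a narrower spread over the same 23 labels. Leaving out mTEC2 removes the highest label of Ins2 but not that of most genes, so this share does not rank Ins2 over all labels. The thymocyte library held 1668 UMIs, from 9.46 CPM in Mature cycling T to 38.3 in DP, which was 2.25-fold (1.91 to 2.66) above DN, and there 49.9% of 6099 such genes were narrower. RefSeq lists 36 transcripts under Ins2, 2 coding and 34 noncoding, and another gene, LOC108349673, as overlapping it. Gene-level UMIs cannot be told apart by transcript, so they are not equated here with insulin mRNA. Ins1, the other rat insulin gene, had no UMI in either library.

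The mTEC2 level of Ins2 rested on few cells. It was 189 CPM (161 to 220), 5.89-fold above mimetic(tuft) and 7.87-fold (6.28 to 9.87) above mTEC1, and 26 of 61 cells had a UMI. A single cell held 93 of the 165 UMIs, the next 21 and the one after it 9. Without that cell the level was 83.1 CPM (65.0 to 105), without 2 it was 60.7 (45.2 to 79.8) and without 3 it was 50.9 (36.7 to 68.8), the last still above every other label of at least 20 cells, though its interval overlaps that of mimetic(tuft). Leaving out the top cell of each label put mTEC2 2.88-fold above the next label, and clusters put TEC-d at 53.7 CPM, 1.68-fold above TEC-a, both under the 3-fold rule. The cell with 93 had 8597 UMIs in all, 1 of Aire and 6 of Epcam, and none of Iapp or Pdx1. The cell with 21 had 26344 UMIs, 2 of Aire, 19 of Fezf2 and 11 of Pdx1, a regulator of insulin-producing cells. Ins2 was in 17 of 40 mTEC2 cells with Aire, 42.5% (27.0 to 59.1), and in 9 of 21 without, 42.9% (21.8 to 66.0). The cells with Aire were deeper, with a median of 17096 UMIs against 7652. With a cut of at least 2 Aire UMIs the shares were 48.4% and 36.7%. The levels changed order with the cut, at 209 and 116 CPM for 1 Aire UMI and 82.2 and 416 CPM for 2. No order is read from these values.

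**Figure D3:**
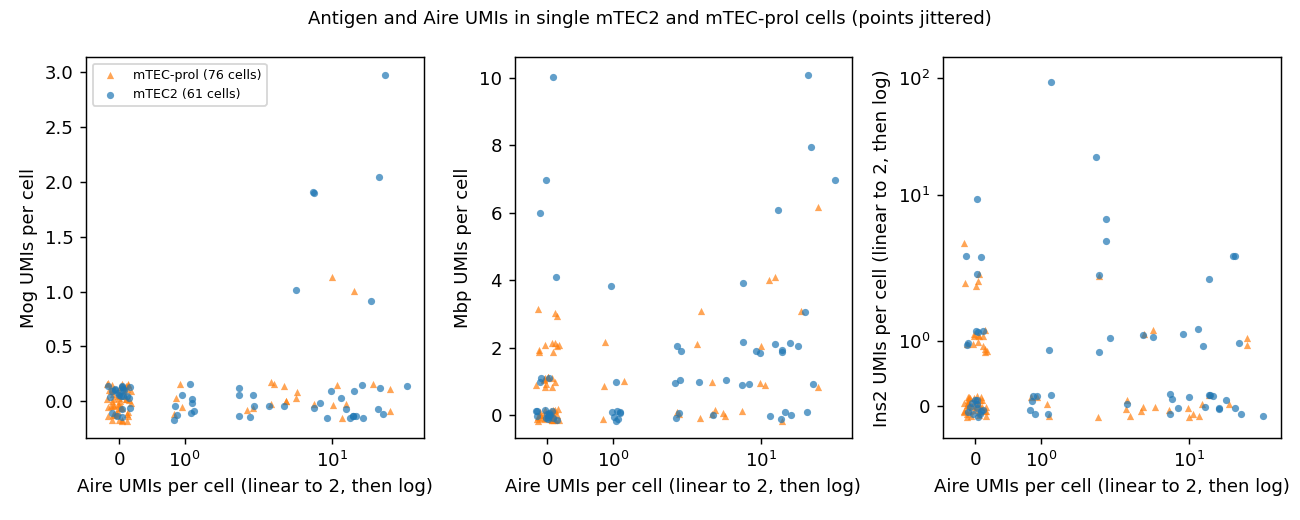
UMIs of Mog, Mbp and Ins2 against UMIs of Aire in single cells of mTEC2 (61, circles) and mTEC-prol (76, triangles), with points moved slightly at random so that they do not hide each other. Cells with Mog lie at 5 to 28 Aire UMIs, Mbp is spread over the whole range, and the cells with 93 and 21 Ins2 UMIs have 1 and 2 Aire UMIs.

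Iapp, a hormone secreted together with insulin, had another pattern. It was at 380 CPM (340 to 424) in mimetic(goblet) and 265 (223 to 313) in mimetic(muscle), with 1 UMI in mTEC2. Of the other endocrine genes listed, Insm1, Chgb, Pdx1, Pcsk1 and Pcsk2 were highest in mTEC2. Pcsk1 (20.6 CPM) and Pcsk2 (78.8 CPM) met the 3-fold rule there, as 2.63% of all genes did. Pdx1 had 17 of its 22 stromal UMIs in mTEC2 and Chgb 8 of 13. Neurod1 had no UMI and Chga had 2, with cTEC highest. The genes most like Ins2 over stromal labels were C1qtnf12 (r = 0.807), Kap (0.805) and Tfap2b (0.798), all highest in mTEC2.

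UMIs assigned to Tg were mostly in thymocyte labels, with the limit that Sla overlaps it, as given below. In the stromal library 60 of 105 UMIs were in the Thymocyte label, 35.0 CPM (26.7 to 45.0), 9.60-fold (5.80 to 16.4) above Myeloid at 3.64 CPM (2.28 to 5.52). The epithelial labels together gave 5 UMIs, and mTEC1, mTEC-prol and mTEC2 gave 0, with floors of 2.19 CPM in mTEC-prol and 3.43 in mTEC2. In the thymocyte library Tg gave 2875 UMIs in 2193 cells. It was at 10.5 CPM (8.68 to 12.6) in DN, 18.2 (16.3 to 20.4) in DP-P and 93.0 (88.7 to 97.4) in DP, 8.84-fold (7.31 to 10.8) above DN. Pre DP-sig at 103 CPM (85.9 to 123) and DP-sig at 101 (84.3 to 120) overlapped DP. Later labels were lower, with Immature CD4-1 at 40.4 (27.4 to 57.3) and Mature CD8-1 at 55.9 (41.9 to 73.1), and gdT was lowest at 4.04 (2.02 to 7.23).

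**Figure D4:**
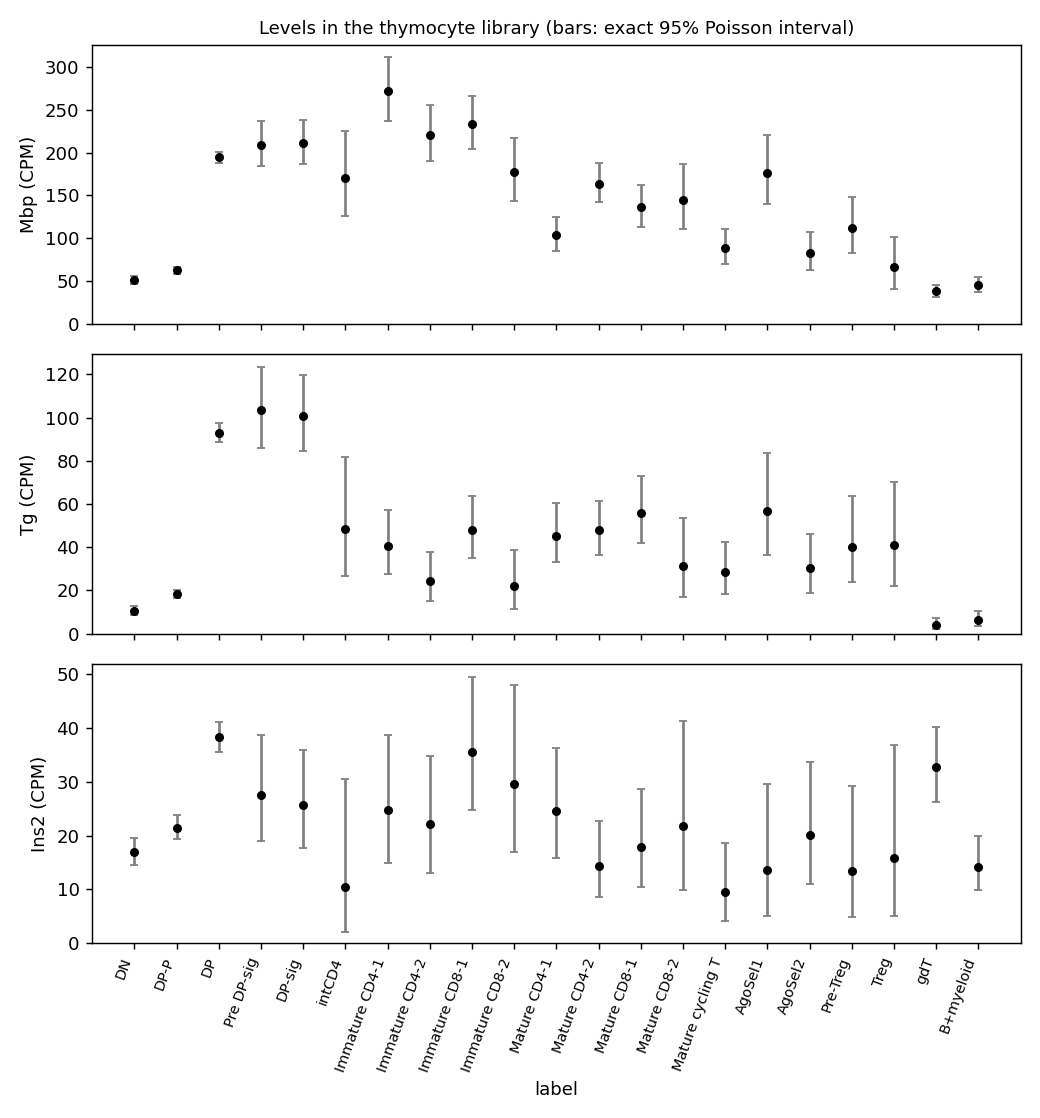
Mbp, Tg and Ins2 levels in CPM by thymocyte label, with bars for the exact 95% Poisson interval. Mbp is at 51.2 CPM in DN, 194 in DP and 272 in Immature CD4-1, Tg peaks at 103 in Pre DP-sig, and Ins2 stays between 9.46 and 38.3.

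Sla, an adaptor that lowers T cell receptor signalling, overlaps Tg in the RefSeq table, and the strand setting of the counting is not given in the sources used here, so reads of the pair cannot be told apart with certainty. Over the 21 thymocyte labels the levels of Tg and Sla in CPM had a Pearson correlation of 0.911 and a Spearman correlation of 0.786, a description of labels from 1 library. Their ratio was not constant: Tg UMIs per Sla UMI ran from 0.0759 (0.0370 to 0.140) in gdT and 0.0802 (0.0657 to 0.0971) in DN to 0.204 (0.193 to 0.214) in DP and 0.438 (0.311 to 0.610) in Mature CD8-1. In the Thymocyte label of the stromal library it was 0.128 (0.0959 to 0.167). Of the thyroid genes, Nkx2-1 had no UMI in either library. Pax8 gave 1873 UMIs in the thymocyte library and was highest in DP at 81.0 CPM. The genes most like Tg there included Itpkb (r = 0.907) and Clk1 (0.893).

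**Figure D5:**
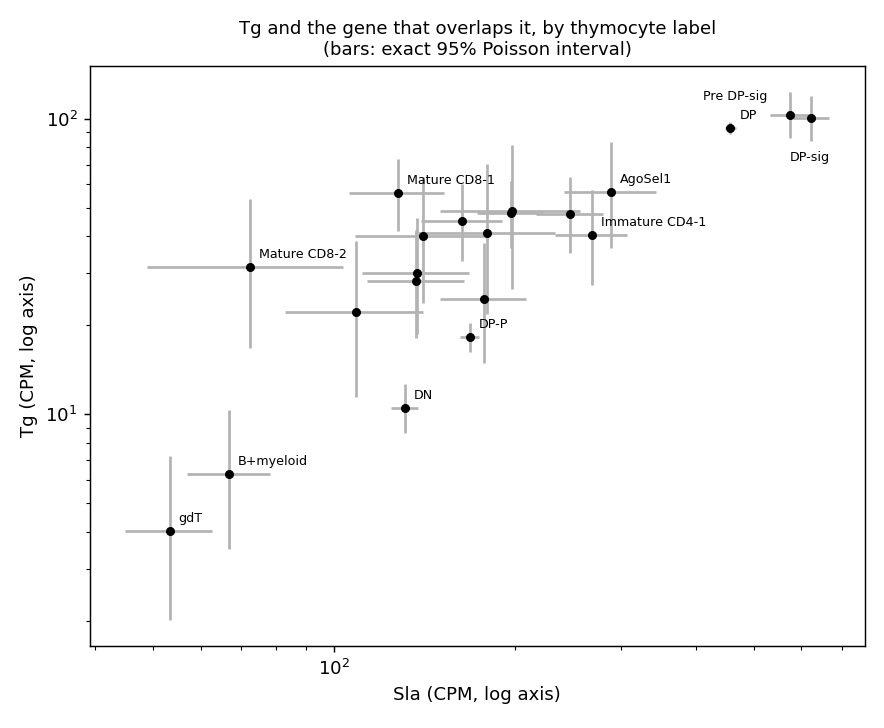
Tg against Sla, both in CPM on log axes, with 1 point per thymocyte label and bars for the exact 95% Poisson interval. DP, Pre DP-sig and DP-sig are high in both genes and gdT is low in both, while Mature CD8-1 has more Tg for its Sla than DN.

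Of 42 other autoimmune targets of myelin, retina, endocrine organs, muscle, joint and kidney, 27 had at least 20 UMIs in the stromal library, 64.3% against 58.6% of all genes, and 4 had no UMI, Ins1, Slc30a8 and Pth among them. Of the 27, 9 were highest in mTEC2, 3 of them on fewer than 3 UMIs there, and 15 in an epithelial label. Of all genes with at least 20 UMIs, 9.53% were highest in mTEC2 and 44.6% in an epithelial label. The rule of a 3-fold lead picked 4, of which those in mTEC2 are described here. Calca, the calcitonin precursor, was at 279 CPM in mTEC2, 27.2-fold above the next label, and Rpe65, the visual-cycle isomerase, was at 18.3 CPM on 16 UMIs there. In the thymocyte library 13 of the 42 had at least 20 UMIs, 31.0% against 46.8% of all genes, and 12 had none. There Pmp22 and Col4a3 led in B+myeloid, a label that also held 821 of 825 UMIs of the fibroblast gene Dcn and 74 of 80 of Epcam. In that label 11 cells with 3 or more UMIs of Epcam, Krt5, Dcn and Col1a1 gave 59 of its 72 Pmp22 UMIs and 10 of its 30 Col4a3 UMIs. The third leading gene was Ptprn, an islet phosphatase-like protein, in gdT at 89.3 CPM, 3.17-fold above DN.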

How the data were processed

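Per the file headers, Cell Ranger 8.0.0 made the deposited count tables, whose values are whole numbers of UMIs for each gene in each barcode. The build was mRatBN7.2 and Seurat 5.3.0 was used, per the submitters' processing notes, and the annotation is not given in the sources used here. Percent of mitochondrial UMIs per annotated cell is the authors' deposited value. The 5.46% given below for a barcode without annotation was instead computed here from the deposited counts, as the mitochondrial share of its UMIs. Labels are the authors' projected label, or the cluster where none was given. Doublets and free RNA were not removed here.

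UMIs were summed per label and given as CPM with exact Poisson intervals. Clopper-Pearson intervals, also exact, are given for shares of cells, and ratios have exact binomial intervals conditional on the summed UMIs. A label under 3 UMIs was counted at 3 in lead ratios. A lead needed 20 UMIs of the gene, 3 UMIs in the highest label and 3-fold over the next. Likeness is Pearson r of log2(CPM + 1) over ordered labels, among genes of at least 100 UMIs, and the 3 most alike were named. Thinned shares are exact expectations at 1000 UMIs, without the 83 and 51 shallower cells. Of 34034 feature names, 29433 matched a RefSeq symbol of GRCr8, which was used for names, neighbours and start windows.

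The 6 genes and all lists were chosen with earlier results of these data known. The wording of the lead rule, the label pairs compared, the levels recomputed under alternatives, the 4 motifs, the Tg to Sla ratio, the Ins2 levels without 2 or 3 cells, the spread comparison, the split of Myeloid cells by Sag, the thymocyte list without Ptcra, the cells of B+myeloid and the look at barcodes without annotation were settled after values had been seen. Named genes are the 6, those of the other lists with a lead or that answer a comparison, the most alike and the neighbours. Some genes that these rules pick are not reported here. The lead and likeness rules were tested on simulated data. Tools were pandas 2.3.3, SciPy 1.17.1 and NumPy 2.4.6 under Python 3.11.15, with matplotlib 3.10.9 for plots.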

Additional observations from a re-analysis of the deposited data

Results flagged for a closer look

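The 2934 stromal barcodes that carry no annotation enter none of the comparisons above, yet they held UMIs of 4 of the genes above the level that a count of 0 allows. There were 223 Mbp UMIs, 25.7 CPM (22.5 to 29.4) against 11.1 in annotated cells, and 299 Ins2 UMIs, 34.5 CPM (30.7 to 38.7) against 20.5. There were 11 Sag UMIs, 1.27 CPM (0.634 to 2.27) against 0.714, and 7 Tg UMIs, 0.808 CPM (0.325 to 1.66) against 0.798. Mbp and Ins2 were thus higher than in annotated cells beyond counting error, and Sag and Tg were not. Aire was at 28.0 CPM in these barcodes against 4.98 in annotated cells. Of the Ins2 UMIs, 54 lay in a single barcode with 40156 UMIs, 7452 genes, 5.46% mitochondrial UMIs, 11 Aire UMIs and 54 Epcam UMIs, and no UMI of Ins1, Iapp or Pdx1.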

How the results depend on the processing

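No paired analysis was possible because the groups hold single libraries. Of 91 recomputed values over 22 results, 53 stayed within the counting interval, 37 moved out of it and 1 lost its place as highest label. That was Ins2 in DP, which with clusters in place of labels was 32.8 CPM in DP1 below 46.4 in DP2. Clusters also gave, in TEC-d for mTEC2, 48.7 CPM of Mbp, 2.31 of Mog and 53.7 of Ins2, as well as 225 of Mbp in Early SP and 84.9 of Tg in DP1. Means of the cells' CPM gave, for Mbp, 239 in Thymocyte and 140 in mTEC2, for Sag 18.6 in Myeloid, for Ins2 285 in mTEC2, and for Tg 56.3 in Thymocyte and 98.9 in DP. Thinned levels are such means over cells of at least 1000 UMIs, so they are not independent of these, and were 234, 142, 18.7, 290, 56.1 and 99.2 in that order. Totals without mitochondrial, ribosomal and haemoglobin genes raised Mbp to 207 in Thymocyte, 139 in mTEC2, 20.2 in TMC4, 375 in Immature CD4-1 and 258 in DP, Ins2 to 230 in mTEC2 and 50.8 in DP, and Tg to 123 in DP. Ins2 in mTEC2 was 227 CPM without cells holding 3 or more thymocyte UMIs (193 with Ptcra left off that list, chosen after seeing the data) and 83.1 without its top cell. The settings without 2 and 3 top cells, chosen after seeing the data, gave 60.7 and 50.9. Thinning lowered the share of mTEC2 cells to 11.4% for Mbp, 0.775% for Mog and 10.6% for Ins2, of Myeloid cells with Sag to 1.84%, of DP cells to 16.9% for Mbp and 9.17% for Tg, and of DN cells to 5.97% and 1.42%. Other causes were not tested. Depth limits what can be said of mTEC2, where 61 cells put the floor at 3.43 CPM.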
